A study of Mus musculus with 4 samples.

Results

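Noggin and the bone morphogenetic proteins (BMPs) were followed here as 7 genes, Nog, Chrdl1, Bmp2, Bmp3, Bmp4, Bmp6 and Bmp7, out of 19465 genes in the count tables. The genes were found by their symbols. The list was selected on earlier results of the same sections, in which the areas that hold these genes and a lower Nog count in the hippocampus of the HF group had already been seen. Their levels over areas and their differences between the diets are therefore a description, and nothing is concluded from how many of them passed a test. The data are spatial transcriptomes (Visium on formalin-fixed tissue) of 4 coronal brain sections from male C57BL/6J pups at postnatal day 21. Their dams ate an amino acid-defined diet with folic acid (FA) at 2 mg/kg (MF, the control diet) or at 20 mg/kg (HF, the high diet), started 2 weeks before mating and kept through pregnancy and lactation. Each group holds 2 sections, labelled rep1 and rep2, and the labels do not say whether the 2 pups of a group shared a litter. P-values of the tests within an area therefore measure the spread between these sections, which may be in part technical.

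BMPs are secreted ligands of the transforming growth factor beta superfamily. They bind pairs of serine/threonine kinase receptors, which phosphorylate Smad1, Smad5 and Smad9, and the Id genes are among their best known targets. Noggin, the product of Nog, binds several BMPs outside the cell and keeps them from their receptors, and the chordin family, to which Chrdl1 belongs, works in a related way. In the brain this balance is known for its part in the adult neurogenic niches, where BMPs hold progenitors quiescent and noggin releases them, and for the choice between astrocyte and oligodendrocyte fates. The genes lie on 6 chromosomes of the mouse genome (GRCm38), with Nog at chr11:89300638-89302332 on the minus strand, Chrdl1 at chrX:143285674-143394262, Bmp3 at chr5:98854415-98884396, Bmp4 at chr14:46383520-46390669 and Bmp6 at chr13:38345107-38500302. Bmp2 and Bmp7 share chromosome 2, at 133552159 to 133562885 and 172868012 to 172940321. All 7 are annotated as protein-coding.

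The 4 sections kept 13452 spots with 34982061 to 90096877 unique molecular identifiers (UMIs) each, and MF rep1 was the deepest, with a median of 23543.5 UMIs per spot against 9286 to 12074.5 in the other sections. A spot covers several cells, so fewer cells of a type and less RNA per cell cannot be told apart. Spots were clustered without the 7 genes and without the other BMP pathway genes, and a cluster was named only from marker genes. The names stand for "hippocampus-like" (HP, 1043 spots), "cortex-like" (CTX), "thalamus-like" (TH), "hypothalamus-like" (HY), "striatum-like" (STR), "white matter-like" (WM), "meninges-like" (MEN), "choroid plexus-like" (CP), "ependyma-like" (EPD) and "medial habenula-like" (MHB) spots. Within HP, spots resembled CA1 (136), CA2-3 (136), the dentate gyrus (DG, 97) or neuropil (217). Within CTX they resembled layers 2-3, 4, 5 and 6 (L2-3, L4, L5, L6). Clusters that no marker list named are called by their leading genes. The HP spots led by Ptgds and Myoc (112) also had Col1a1, Col1a2, Dcn and Ttr among their leading genes, which are markers of MEN or CP. They are counted in all HP values, so these values are not of hippocampal tissue alone. In the CA2-3 spots 8 CA3 neuron genes summed to between 1090 and 1320 CPM (counts per 1000000 UMIs), against 473 to 552 CPM over all HP spots. For 5 CA2 neuron genes the sums were 321 to 350 CPM and 214 to 282 CPM, and 1 of them, Cacng5, was lower in CA2-3 in every section. These genes were among the markers that named the cluster, so the sums are no independent check of the name. Levels are given as CPM of the UMIs summed over the spots of an area in 1 section, in the order MF rep1, MF rep2, HF rep1, HF rep2. Each gene was read by its own probes, so its level is compared between areas and not with that of another gene.

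Among the antagonists, Nog was highest in the upper cortical layers. In L4 it stood at 39.9, 29.9, 34.7 and 36.0 CPM, and in L2-3 at 35.1, 38.4, 31.8 and 30 CPM. The means of L4 and L2-3 were 35.1 ± 4.14 and 33.8 ± 3.69 CPM (SD, n = 4 sections), their ranges overlapped, and each section of both layers lay above every section of the spots led by Lypd1 and Cyp26b1, which came next at 27.0 ± 2.66 CPM. L5 and L6 followed at 21.5 ± 5.14 and 19.5 ± 2.52 CPM. In the 26 areas that do not overlap, Nog was lowest in HP spots led by Igfbpl1 and Sox11 (5.72 ± 3.53 CPM) and in MHB (7.07 ± 4.54 CPM). The cortex held 27.1% to 39.3% of the Nog UMIs of a section on 21.2% to 26.0% of its spots. At least 1 Nog UMI was found in 23.6% to 61.8% of the L4 spots, and in 13.9% to 20.4% of them after each spot was thinned to 5000 UMIs. The thinned share in MHB, an area with little Nog, was 0% to 6.78%.

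Chrdl1, which encodes an antagonist of the chordin family secreted by astrocytes, also had its highest mean in L2-3, at 10.4, 11.2, 14.2 and 10.2 CPM. It was lower in the deeper layers of the cortex, with a mean of 8.53 ± 1.85 CPM in L4, 5.41 ± 0.813 CPM in L5 and 3.88 ± 1.6 CPM in L6 (SD, n = 4). Spots led by Ndnf and Dio2 came second, at 15.1, 10.1, 5.41 and 14 CPM (mean 11.2 ± 4.40), and the ranges of these spots and of L4 overlapped with that of L2-3. The gene was the most sparse of the 7, with 828 UMIs over the 4 sections. In CA2-3 a total of 3 Chrdl1 UMIs was counted, all in MF rep1.

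Of the ligands, Bmp6 and Bmp7 were highest in the choroid plexus and the meninges. Bmp6, known outside the brain as a regulator of iron balance, stood at 167, 206, 165 and 177 CPM in the 45 CP spots and at 112, 115, 187 and 99.5 CPM in MEN. These ranges overlapped, and both lay above every section of the next area, HP spots led by Ptgds and Myoc, which had a mean of 44.1 ± 22.8 CPM (SD, n = 4). The leading genes of those spots include markers of MEN and CP. Every CP spot had a Bmp6 UMI, and 50% to 77.8% of them kept one after thinning, against 0% to 4.65% of CA1 spots. Bmp7, a ligand that the meninges are known to supply to the developing cortex, was at 50.6, 65.9, 81.0 and 47.9 CPM in CP and at 57.7, 47.9, 78.3 and 31.7 CPM in MEN. A further high area was MHB, at 31.8, 44.7, 42.8 and 41.2 CPM, and these 4 values lay above all 4 of the area ranked next. In both CP and MEN, Bmp7 was highest in HF rep1 and lowest in HF rep2, so the pair of HF sections enclosed the MF pair.

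Bmp4 was highest in white matter. It stood at 30.1, 29.2, 33.0 and 27.2 CPM in WM, and at 30.3, 23.9, 39.7 and 22.2 CPM in MEN, with overlapping ranges. Committed oligodendrocyte precursors are a known source of Bmp4. The 6 genes of that cell type summed to between 1020 and 1298 CPM in WM and to between 427 and 479 CPM in MEN. The part of these cells in the Bmp4 levels was not tested. Of the hippocampal cell layers, DG had 3.83 ± 1.42 CPM of Bmp4, CA2-3 had 4.98 ± 0.580 CPM and CA1 had 8.65 ± 4.37 CPM (SD, n = 4), the last from 3.58 to 14.2 CPM. Bmp2 had its highest level in MEN, at 18.0, 30.5, 28.4 and 25.4 CPM, and its lowest in DG (1.94 ± 1.44 CPM), CA2-3 (2.31 ± 0.694 CPM) and CA1 (3.67 ± 0.981 CPM). Over all 4 sections these 3 cell layers held 11 Bmp2 UMIs in CA1, 10 in CA2-3 and 6 in DG, and a difference among them was not detectable at this depth.

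Bmp3, an atypical ligand known to act against other BMPs in bone, had its highest mean in L6. Of the named cortical layers, L2-3 came next. It was at 55.3, 48.4, 61.4 and 80.7 CPM in L6 and at 40.1, 37.7, 31.8 and 49.3 CPM in L2-3. L4 and L5, which lie between these layers, had 20.6, 13.8, 17.7 and 15.4 CPM and 23.6, 17.2, 22.9 and 16.8 CPM. Every section of L6 and of L2-3 was therefore above every section of L4 and L5. Spots led by Gm45623 and Oprk1, by Cyp26b1 and Wnt7b, and by Lypd1 and Cyp26b1 had means of 60.3, 59.0 and 56.3 CPM. These were above the mean of L2-3 (39.7 CPM), and their ranges overlapped with that of L6. By the deposited Moran's I, a score of how alike neighbouring spots are, Bmp3 had 0.204, 0.112, 0.0849 and 0.160 in the 4 sections. This was the highest of the 7 genes in all sections but HF rep1, where Bmp6 had 0.0922. For Nog that score was 0.0635, 0.0258, 0.0225 and 0.0526. The deepest section, MF rep1, had the highest score of both genes, and the part of depth in it was not tested.

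**Figure D1:**
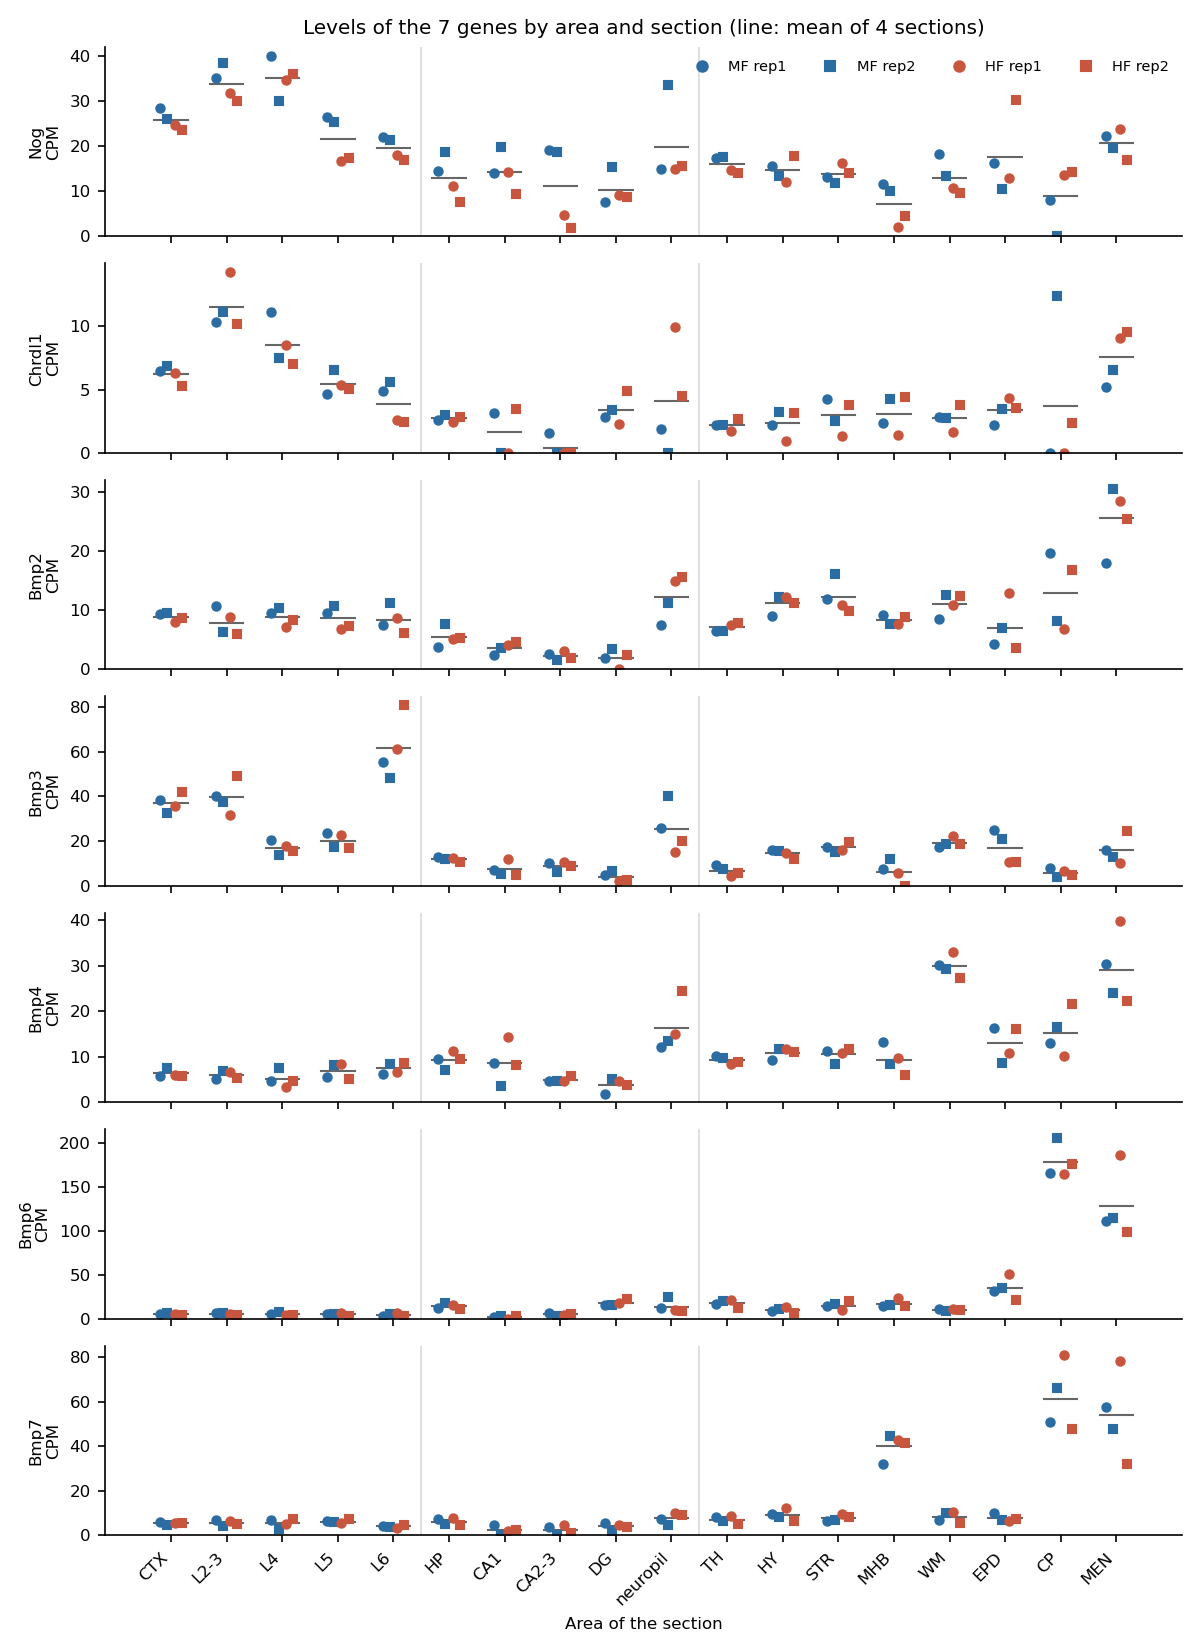
CPM of each gene (vertical axes, each from 0) in the named areas (horizontal axis), 1 point per section with MF in blue and HF in red, circles for rep1, squares for rep2 and a line at the mean of 4 sections. Nog and Chrdl1 peak in L4 or L2-3, Bmp3 in L6, Bmp4 in WM and MEN, Bmp2 in MEN, and Bmp6 and Bmp7 in CP and MEN, while the HF points lie below the MF points for Nog in CA2-3.

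The genes whose pattern was most like that of each member were found by Pearson's correlation of log2(CPM + 1) over 104 points (26 areas in each of 4 sections, with the mean of each section removed) among 12609 features with at least 500 UMIs. Points of a section share a library and its depth, so these values are a description. Bmp6 was followed by Col1a2 (r = 0.85), Igf2 (0.85) and Pcolce (0.83), and Bmp7 by Col1a2 (0.84), Igf2 (0.82) and Dab2 (0.81). Col1a2 and Pcolce encode a fibrillar collagen chain and an enhancer of collagen processing, and Igf2 encodes a growth factor. Bmp6 and Bmp7 resembled each other with r = 0.69. Bmp4 was closest to Apod (0.83), Tmem63a (0.82) and Ppp1r14a (0.81), of which Apod was highest in MEN and the other two in WM. For Bmp2 the nearest genes were Ptprb (0.71), an endothelial phosphatase, Vtn (0.69) and Ecm1 (0.68). Bmp3 was nearest to Gng13 (0.75), Rab3b (0.74) and Hs3st2 (0.72). The likeness was weaker for the antagonists, with Btbd1 (0.67), Vmn2r87 (0.65), B3glct (0.65), Cited4 (0.63) and Gpat4 (0.63) for Nog and Rasgrf2 (0.53), Rep15 (0.52) and Rnf125 (0.50) for Chrdl1. By Spearman's correlation, the gene ranked first for Nog held place 133, whereas Ptprb stayed in place 1 for Bmp2 and Rasgrf2 took place 2 for Chrdl1.

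The hippocampal fields were examined next, first for Nog. Over all HP spots Nog stood at 14.6 and 18.6 CPM in the MF sections and at 11.2 and 7.70 CPM in the HF sections, and the groups did not overlap. In CA2-3 it was at 19.0 and 18.6 CPM in MF rep1 and MF rep2 (36 and 12 UMIs in 37 and 26 spots) and at 4.66 and 1.95 CPM in HF rep1 and HF rep2 (3 and 2 UMIs in 32 and 41 spots). Nog UMIs were thus found in 34 of 63 CA2-3 spots of the MF group and in 5 of 73 of the HF group. The HF values lie at or below the level of 3 UMIs, which was 4.66 CPM in HF rep1 and 2.92 CPM in HF rep2. Over the summed UMIs, MF exceeded HF by 6.32-fold in CA2-3, with an exact 95% interval from 2.53-fold to 20.4-fold that covers counting error only. MF rep1 was deep here too, with a median of 51381 UMIs per CA2-3 spot against 23903, 19605 and 23790 in the other sections. After thinning to 5000 UMIs, Nog UMIs remained in 10.8% of 37 and 7.69% of 26 MF spots and in 3.23% of 31 and 2.44% of 41 HF spots. These shares rest on a few spots per section, with too few UMIs for a test.

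**Figure D2:**
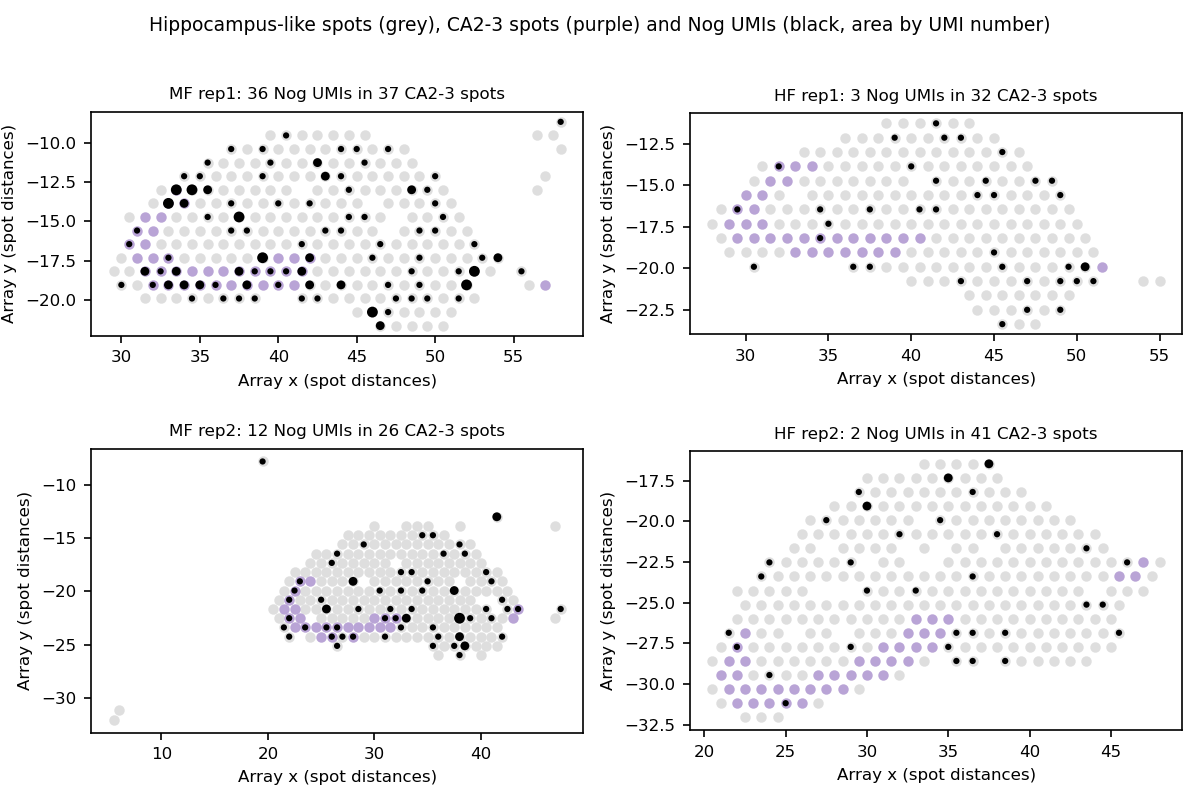
HP spots of the 4 sections at their array position (axes in spot distances), with CA2-3 spots in purple, other HP spots in grey and Nog UMIs as black points whose area follows the number of UMIs. Black points lie along the purple band in both MF sections (36 and 12 UMIs) and few lie on it in the HF sections (3 and 2 UMIs), while grey spots hold Nog UMIs in all 4, and a few spots assigned to HP lie apart from the hippocampus.

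In CA1, DG and the neuropil the diets overlapped. In CA1, Nog was at 14.1 and 19.7 CPM in MF and 14.2 and 9.32 CPM in HF, and in DG at 7.57 and 15.4 CPM in MF and 9.25 and 8.62 CPM in HF. In the neuropil MF rep2 alone was high (33.6 CPM), and the other 3 sections lay between 14.9 and 15.6 CPM. The 268 HP spots led by Crhbp and Sst had 13.4 and 11 CPM in MF and 16.8 and 11.4 CPM in HF. These values came from 15, 6, 6 and 6 UMIs, the diets overlapped, and HF rep1 was the highest section. HP spots led by Ptgds and Myoc had 20.5 and 27.6 CPM in MF and 19.2 and 16 CPM in HF, from 22, 11, 9 and 4 UMIs, and the groups did not overlap. HP spots led by Igfbpl1 and Sox11, the latter a gene of immature neurons, had 8.82 and 8.48 CPM in MF and 3.96 and 1.6 CPM in HF, but from 9, 4, 2 and 1 UMIs, and the ratio of MF to HF, 3.28, had a 95% interval from 0.903 to 17.97. Outside the hippocampus, MHB had 11.6 and 10.1 CPM in MF against 2.10 and 4.42 CPM in HF, with 34, 12, 3 and 3 UMIs, a ratio of 3.93 (95% interval 1.67 to 11.3, counting error only). HP spots outside CA2-3 had a mean of 16 ± 3.78 CPM in MF and 11.1 ± 2.43 CPM in HF (SD, n = 2), a log2 ratio of -0.53. Their sections stood at 13.3, 18.6, 12.8 and 9.37 CPM, so the lower MF section and the higher HF section nearly met.

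**Figure D3:**
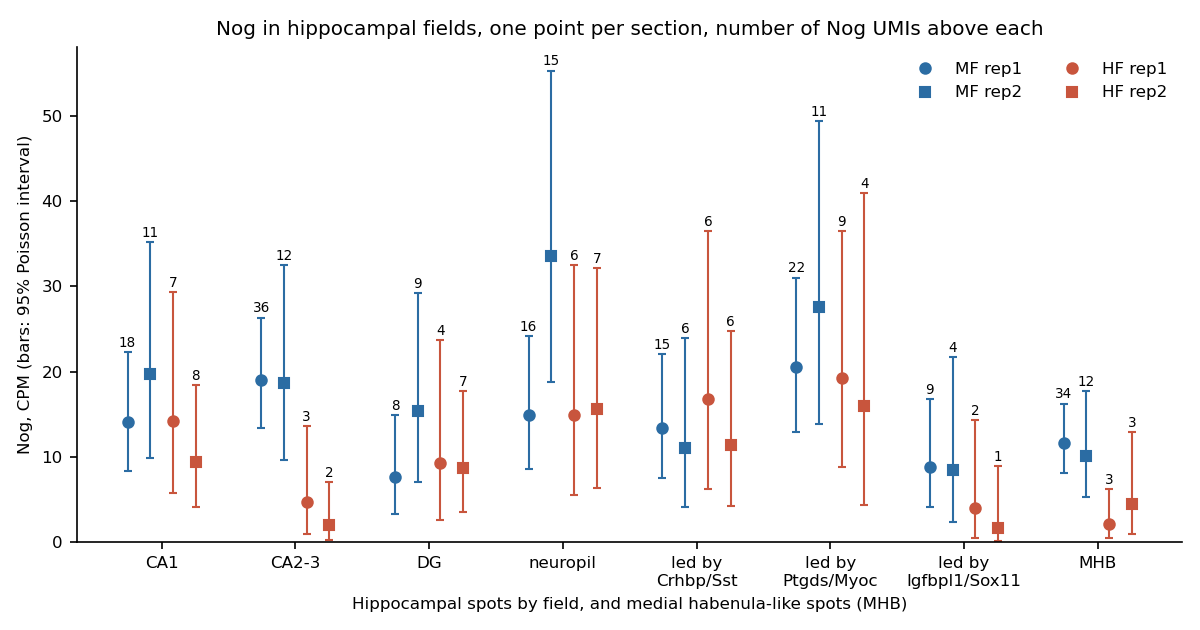
Nog level in CPM (vertical axis) in the hippocampal fields and MHB (horizontal axis) for each section, with 95% Poisson intervals as bars and the number of Nog UMIs above each. In CA2-3 the MF sections lie at 19.0 and 18.6 CPM and the HF sections at 4.66 and 1.95 CPM. There the interval of HF rep2 lies below both MF intervals, and that of HF rep1 overlaps both. In MHB only the intervals of MF rep1 and HF rep1 are apart. The intervals of all 4 sections overlap in CA1, DG, neuropil and each set of spots called by its leading genes.

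In the fit across all features (edgeR's quasi-likelihood test on UMIs summed per section, Benjamini-Hochberg adjustment), Nog in CA2-3 had a log2 fold change of -2.58 (SE 0.58, adjusted p = 0.00972) between HF and MF. A feature was called at an adjusted p under 0.05 and at least 1.2-fold, and 0.319% of the 9104 features tested in CA2-3 were called. The list was selected with this contrast in view, so the call is a description. It was lost when any single section was left out, in fits that leave 1 section in a group. Their log2 fold changes were -2.56 without MF rep1, -2.59 without MF rep2, -3.18 without HF rep1 and -1.99 without HF rep2. The call was also lost by DESeq2, whose estimate was -2.58 (adjusted p = 0.99987). It stayed with library size alone, without a filter on low counts, with the replicate block and at Leiden resolutions 0.5 and 1.5. After thinning, Nog had too few UMIs in CA2-3 to be tested. In one edgeR fit over 14 areas with the section as a block, the difference between the diets in CA2-3 minus the mean of that in CA1, DG and neuropil was -2.23 on the log2 scale (SE 0.65, unadjusted p = 0.00102, adjusted p = 0.876). P-values of this fit measure the scatter of areas within sections, pooled over its areas, and not the spread between sections. No feature of 13019 was called in that contrast (0.0%), although 602 had an unadjusted p under 0.05. The lower Nog count is therefore not shown to be particular to CA2-3 among the hippocampal fields.

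In the CA2-3 spots the summed oligodendrocyte and interneuron markers were lower in both HF sections. Those of astrocytes, committed oligodendrocyte precursors and vessels overlapped between the diets. The 10 oligodendrocyte markers summed to 10442 and 9527 CPM in the MF sections of CA2-3 and to 6785 and 7149 CPM in the HF sections, and each of the 10 was lower in both HF sections than in both MF sections. The same held over all HP spots, with 15716 and 14517 CPM in MF and 10775 and 10235 CPM in HF (10 of 10). In WM the sums overlapped, at 81061 and 94048 CPM in MF and 85720 and 78666 CPM in HF (3 of 10 lower). The share of all features ordered in this way was not set beside these counts. The 8 interneuron markers summed to 786 and 834 CPM in the MF and to 629 and 630 CPM in the HF sections of CA2-3, with 3 of 8 below both MF sections in both HF sections. Over all HP spots their sums overlapped, at 855 and 1002 CPM in MF and 1098 and 980 CPM in HF (1 of 8 lower and 1 higher in both HF sections). In CA2-3 the 8 CA3 markers stood at 1090, 1202, 1166 and 1320 CPM and the 5 CA2 markers at 350, 326, 321 and 331 CPM, with overlapping groups. None of the markers was at 0 in all sections. The part of these cell types in the Nog value was not tested. When CA2-3 spots were split at the section median of their share of CA2 markers, the spots above it had 18.4 and 17.1 CPM of Nog in MF (16 and 5 UMIs) and 1 and 2 UMIs in HF rep1 and HF rep2. Those at or below it had 19.5 and 19.9 CPM in MF (20 and 7 UMIs) and 2 and 0 UMIs in HF. All 4 HF counts lie under the floor of 3 UMIs, which was 10.8 and 6.01 CPM above the median and 8.17 and 5.69 CPM at or below it, so the parts of CA2-3 cannot be compared in HF at this depth. In the spots that touch CA2-3 without belonging to it, Nog was at 16.2 and 16.9 CPM in MF and 14.4 and 11.6 CPM in HF.

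The other 6 genes overlapped between the diets over all HP spots. Chrdl1 was at 2.58, 3.01, 2.42 and 2.86 CPM, Bmp2 at 3.76, 7.67, 5.15 and 5.28 CPM and Bmp4 at 9.52, 7.13, 11.2 and 9.46 CPM. Bmp3 stood at 12.7, 11.8, 12.4 and 10.6 CPM, Bmp6 at 12.6, 18.4, 15.5 and 11.4 CPM and Bmp7 at 7.17, 4.93, 7.88 and 4.40 CPM. All 7 genes were tested in HP, where 0.226% of 12393 features were called and none of the 7 was. Nog had the lowest adjusted p of them, with a log2 fold change of -0.79 (SE 0.24, edgeR adjusted p = 0.322). Its estimate was -1.04 without HF rep1 and -0.51 without HF rep2, each from a fit with 1 HF section, so no call is read from them. Within the fields, Nog was the only member with enough UMIs for the test in CA1 (-0.50, SE 0.49, adjusted p = 0.986) and CA2-3, Bmp6 in DG and Bmp3 in the neuropil. The percentages of features called there were 0.0341% in CA1, 0.0109% in DG and 0.0598% in the neuropil. Bmp6 in DG was at 15.1 and 15.4 CPM in MF and 18.5 and 22.2 CPM in HF (log2 fold change 0.45, SE 0.39, edgeR adjusted p = 0.877). Bmp3 in the neuropil was at 26.0 and 40.3 CPM in MF and 14.9 and 20.1 CPM in HF (-0.78, SE 0.44, adjusted p = 0.994). The groups did not overlap in either area, and neither difference was called.

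Across the whole section none of the 7 genes was called, and neither was any other of 14971 features (0.0%) by edgeR, although 1020 had an unadjusted p under 0.05 and DESeq2 called 22. A fit without HF rep1 or HF rep2 compares 1 HF section with both MF sections, so its count of calls is not given. Nog had 19.7 and 18.5 CPM in the MF and 15.9 and 16.8 CPM in the HF sections (log2 fold change -0.24, SE 0.10, adjusted p = 0.722). Chrdl1 had 4.08, 4.41, 3.0 and 3.95 CPM (-0.29, SE 0.18), and Bmp3 had 23.2, 19.8, 17.4 and 21.1 CPM (-0.17, SE 0.14). The other ligands were within 0.09 of 0 on the log2 scale, at 0.04 for Bmp2, -0.02 for Bmp4, 0.09 for Bmp6 and 0.08 for Bmp7. Bmp6 and Bmp7 were highest in HF rep1, at 20.4 and 12.8 CPM, and lowest in HF rep2, at 13 and 7.32 CPM, so that leaving out 1 of these sections turned or raised their estimates. Without HF rep2 the log2 fold change was 0.42 for Bmp7 in the whole section and 0.70 for Bmp6 in MEN. Without HF rep1 the whole-section estimates were -0.36 for Bmp7 and -0.25 for Bmp6.

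Over the 17 areas compared, 82 of the 119 pairs of a member and an area had enough UMIs to be tested, and 1 of them, Nog in CA2-3, was called. The smallest adjusted p of the others was 0.322. Nog was tested in 14 areas. Both HF sections lay below both MF sections in the whole section, HP, CTX, TH, WM, CA2-3, L2-3, L5 and L6, and above them in STR. The share of all features ordered in this way was not set beside it, so no result about Nog is drawn from this order. These areas are nested, since the whole section holds all the others and CTX and HP hold their layers and fields. In L5, Nog was at 26.5 and 25.4 CPM in MF and 16.8 and 17.4 CPM in HF (-0.61, SE 0.24, adjusted p = 0.726), and in WM at 18.3 and 13.4 CPM against 10.8 and 9.58 CPM (-0.72, SE 0.25, adjusted p = 0.742). In the upper layers, where Nog was highest, the estimate was -0.23 (SE 0.20) in L2-3, and the groups overlapped in L4. L6 had 22.0, 21.4, 17.9 and 16.9 CPM (-0.33, SE 0.22) and TH 17.4, 17.6, 14.7 and 14.1 CPM (-0.28, SE 0.14). The share of all features called in these areas was 0.205% in CTX, 0.339% in L2-3, 0.414% in L4, 0.102% in L5, 0.105% in L6, 0.0538% in STR and 0.0639% in WM. In TH and HY edgeR called no feature (0.0% each), with 943 and 880 at an unadjusted p under 0.05 and 5 called by DESeq2 in each. Counts of calls in TH and HY without HF rep1 or HF rep2 are not given, since those fits hold 1 HF section.

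**Figure D4:**
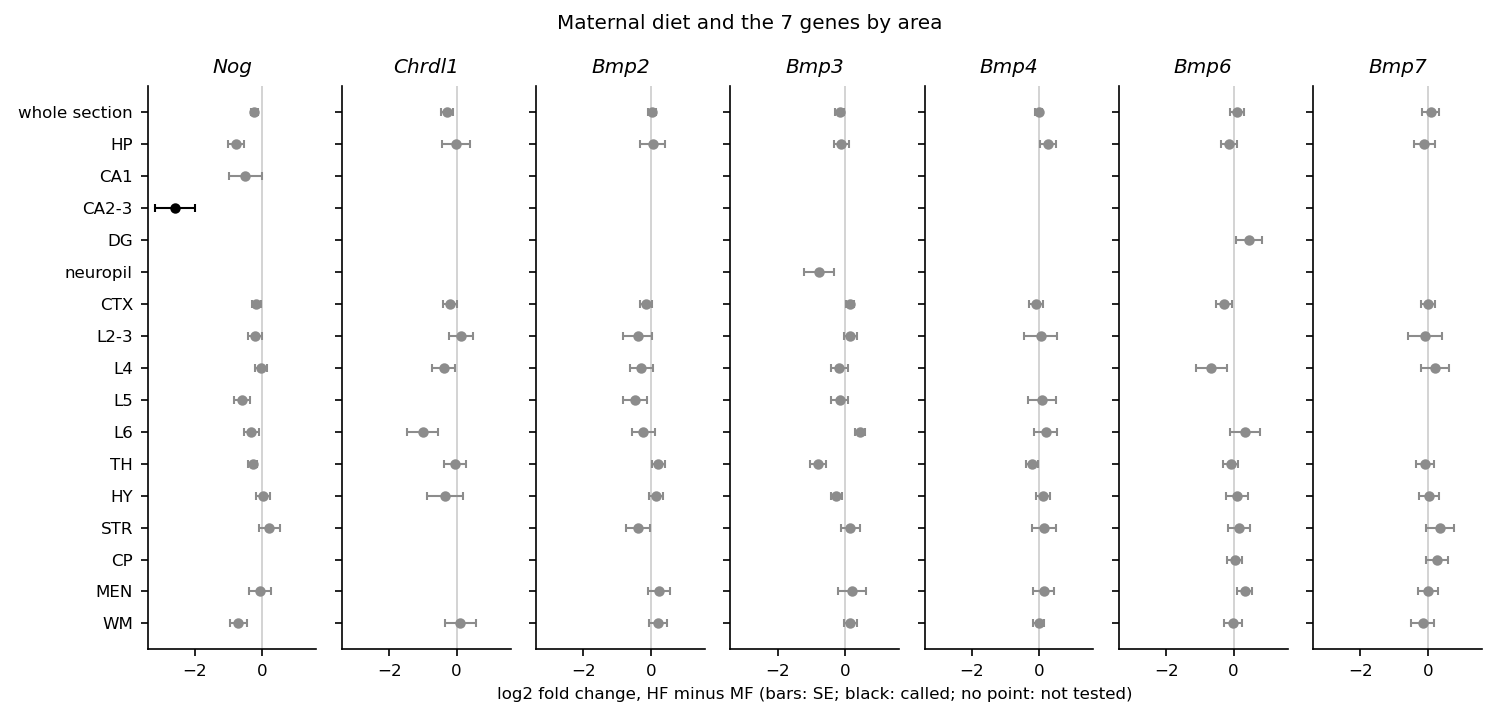
log2 fold change of HF over MF (horizontal axes) with its SE as a bar for each of the 7 genes in the 17 areas (vertical axis), with a black point for a called pair and no point where the gene had too few UMIs to be tested. Nog in CA2-3, at -2.58, is the single black point, and most other points lie within 0.5 of 0.

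For Bmp2, Bmp4, Bmp6 and Bmp7, the diets overlapped in the area where each was highest. Neither Bmp6 nor Bmp7 was called in CP, where 0.147% of features were, nor was any of the 6 members tested in MEN, where 0.0092% were. Bmp4 in WM was at 30.1 and 29.2 CPM in MF and at 33.0 and 27.2 CPM in HF. Bmp2 in MEN was at 18.0 and 30.5 CPM in MF and at 28.4 and 25.4 CPM in HF.

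Bmp3 lay higher in both HF sections in L6 and lower in both in TH, HY and the neuropil. Opposite directions were also seen for Bmp2 (higher in TH, lower in CTX, STR, L4 and L5) and Bmp6 (higher in DG, lower in L4). The share of all features ordered in these ways was not set beside them, so no result about these genes is drawn from the orders. In L6 Bmp3 was at 55.3 and 48.4 CPM in MF and at 61.4 and 80.7 CPM in HF, a log2 fold change of 0.44 (SE 0.15, edgeR adjusted p = 0.592). In TH it was at 9.17 and 7.45 CPM in MF and at 4.29 and 5.55 CPM in HF, a log2 fold change of -0.80 (SE 0.23, adjusted p = 0.618). The TH value was -0.46 after thinning, and the L6 value was 0.21 without HF rep2. Neither was called in the main fits. With 1 HF section in the fit, the estimate was 0.61 in L6 without HF rep1 and -0.997 in TH without HF rep2. In the fit over 14 areas, the difference in TH minus that in L6 was -1.25 (SE 0.25, adjusted p = 0.0191), 1 of 3 calls among 13019 features (0.023%). The pair of areas was chosen after the values were seen, so the call is a description. The call was lost without MF rep1, without MF rep2 and without HF rep2, in fits that leave 1 section in a group. The estimate stayed between -1.29 and -1.19. In the same areas the 10 oligodendrocyte markers summed to 28088, 29755, 23447 and 23865 CPM in TH (10 of 10 lower in both HF sections) and to 17421, 16072, 14515 and 12766 CPM in L6 (9 of 10). Their part in the Bmp3 values was not tested.

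The rest of the pathway was described with a list of 64 genes in 5 roles, all of which had a feature. In 726 tests of a gene in an area, 1 gene was called higher in HF, in the neuropil, and none lower. In HP 49 of the 64 were tested and none was called, beside 0.226% of all features. Of these 28 had a log2 fold change above 0, and the median was 0.05 against -0.00 over all features. In CA2-3, where Nog was low in HF, 35 were tested, 18 lay above 0 and the median was 0.01 against 0.00 over all features, with none called beside 0.319% of all features. At these shares of all features, no call among so few genes is not a result about them. Among these were 9 receptors and co-receptors (5 above 0), 9 signal transducers and inhibitors (4 above 0) and 6 target genes (2 above 0). The Id genes, direct targets of BMP signalling and chosen here after their values were seen, were not called in CA2-3 either. Id1 was at 15.9, 14, 24.8 and 13.6 CPM, Id2 at 27.5, 26.4, 20.2 and 24.4 CPM, Id3 at 55.5, 51.2, 52.8 and 29.2 CPM and Id4 at 92.5, 62.1, 55.9 and 65.3 CPM. The HF sections were both below the MF sections for Id2 only.

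The gene that was called was Chrd, which encodes chordin, another extracellular BMP antagonist. In the neuropil it was at 23.2 and 24.6 CPM in the MF sections (25 and 11 UMIs) and at 64.8 and 67.0 CPM in the HF sections (26 and 30 UMIs), and the groups were far apart. Its log2 fold change was 1.47 (SE 0.33, edgeR adjusted p = 0.0398), and it was 1 of 33 pathway genes tested there, beside 0.0598% of all features called. The call was lost with DESeq2 (1.47), with the replicate block (adjusted p = 0.239), after thinning (1.23, adjusted p = 0.989) and at a finer clustering (1.66, adjusted p = 0.0599). It was also lost without any single section, with estimates of 1.40 to 1.497 in fits that leave 1 section in a group. Over all HP spots Chrd was at 44.8, 53.7, 61.2 and 65.8 CPM (0.40, SE 0.13, adjusted p = 0.382), and its estimate there was 0.47 without HF rep1. In CA2-3 its groups overlapped, with 38.6, 52.8, 49.7 and 47.8 CPM.

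Of the other genes with the smallest p in their role in HP, none was called. The ligand gene Gdf11 was at 65.5, 63.0, 55.2 and 48.2 CPM (log2 fold change -0.32, edgeR adjusted p = 0.499) and Gdf10 at 19.3, 18.6, 20.6 and 21.8 CPM (0.17). Among the receptors, Eng, the endothelial co-receptor endoglin, had 23.3, 26.6, 42.4 and 27.5 CPM (0.49, adjusted p = 0.498), with an estimate of 0.79 without HF rep2. Acvr2b had 12.5, 11.5, 6.67 and 11 CPM (-0.40). HF rep1 was thus the extreme section of both receptor genes. Smad6, an inhibitory Smad, rested on 9, 9, 11 and 17 UMIs, or 1.06, 2.47, 3.33 and 3.74 CPM (1.24, adjusted p = 0.508). Smurf1, a ubiquitin ligase that targets Smads and receptors for degradation, was at 27.6, 23.0, 19.1 and 18.0 CPM (-0.47, adjusted p = 0.495). The target genes Gata2 and Tgif1 were low, at 2.70, 1.64, 2.42 and 3.74 CPM (0.43) and at 3.41, 2.47, 5.15 and 3.52 CPM (0.45).

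**Figure D5:**
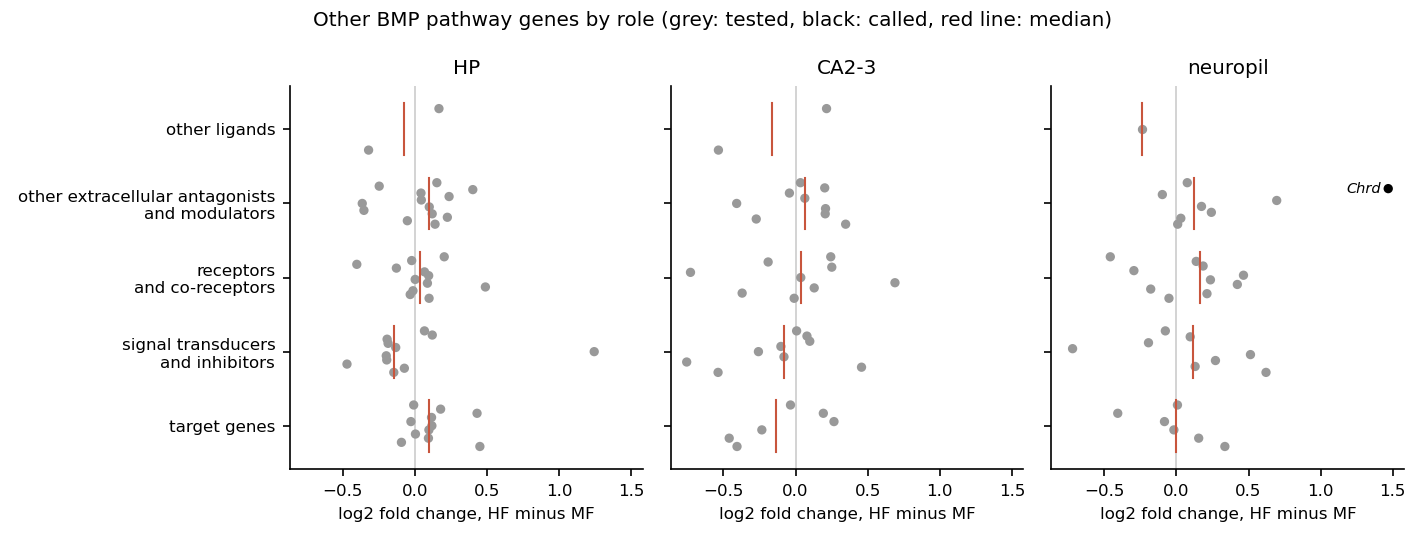
log2 fold change of HF over MF (horizontal axes) of the tested genes of the 64-gene pathway list in HP, CA2-3 and neuropil, by role (vertical axis), with 1 point per gene, black where called, and a red line at the median of each role. Chrd in the neuropil, at 1.47, is the single black point, and in HP each role has points on both sides of 0.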

How the data were processed

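Spatial transcriptomes of 4 sections (2 MF, 2 HF) were read from the UMI counts per probe-targeted gene and spot that the authors deposited, made with Space Ranger on mm10 per the labels, together with the deposited Moran's I, a score per gene and section. Groups were taken from the labels. The 7 genes, the pathway list and the marker lists were chosen with earlier results of these data known. Spots with at least 500 UMIs and 250 features were kept (18 of 13470 removed). The fixed array layout gives sections the same barcodes, and 2472 occur in all 4. Spots were clustered by the Leiden method with sklearn 1.9.0 and igraph 0.11.9 (2000 variable genes, 30 components, 20 neighbours, Leiden resolution 1). The 7 genes, the pathway genes, immediate early genes, mitochondrial genes, Xist and Tsix were left out. Clusters were named where at least 3 markers of a class, more than of any other, were among their top 50 genes. At least 1, no fewer than of any other, had to be among their top 10. Clusters no list named kept their leading genes as a name. Doublets were not called, since a spot holds several cells. Positions are from GENCODE vM21.

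UMIs were summed per area and section, since spots of a section are not replicates, and HF was compared with MF by edgeR 4.0.16 (quasi-likelihood, TMM, filterByExpr, R 4.3.3) over all features, each area on its own, with a call at an adjusted p under 0.05 and 1.2-fold. The study's methods test single spots at these thresholds. Area differences came from 1 edgeR fit over 14 areas with the section as a block, added after the data were seen. Its p-values measure the scatter of areas within sections. The alternatives were DESeq2 1.42.0, library size alone, no filter, a replicate block, spots thinned to 5000 UMIs, Leiden resolutions 0.5 and 1.5, and each section left out. With a section left out 1 group holds 1 section, so no p-values or counts of calls are given from those fits. The scripts were tested on simulated data. Counts per section ranged from 34982061 to 90096877 UMIs, and 95% Poisson and ratio intervals and floors of 3 UMIs cover counting error only. All 7 members, pathway genes called in any area, the 2 with the smallest p per role in HP and, for likeness, the top 5 genes for Nog and top 3 for the others are named. One result under this rule is not reported here. The Id genes and the areas of the Bmp3 difference fall outside this rule.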

Additional observations from a re-analysis of the deposited data

Results flagged for a closer look

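The Bmp3 estimates of HF against MF had opposite signs in TH and L6, and neither was called by itself in the main fits. The log2 difference of HF and MF for Bmp3 in TH minus that in L6 was -1.25 (SE 0.25, adjusted p = 0.0191 in the edgeR fit over 14 areas). Both HF sections lay below both MF sections in TH and above them in L6. That call is only a description. The pair of areas was chosen after its values were seen, and the call was lost without MF rep1, MF rep2 or HF rep2.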

How the results depend on the processing

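For Nog in CA2-3, the log2 fold change was -2.58 with DESeq2, without a call, and ranged from -3.18 to -1.99 with 1 section left out, with no call. With the replicate block it was -2.53 (adjusted p = 0.0128). Nog in CA2-3 could not be tested after thinning. Nog in HP ranged from -1.04 to -0.51 with 1 section left out. The 28 features called in HP became 113 without a filter on low counts, 3 with the replicate block, 14 after thinning, and 7 to 492 with 1 section left out. The 29 called in CA2-3 became 1 with DESeq2, 1 after thinning and 0 to 24 with 1 section left out, while the replicate block gave 33. The 1 call among the members became 0 with DESeq2 and 0 after thinning. The 1 call among pathway genes became 5 without a filter, 2 with the replicate block, 0 after thinning and 0 at resolution 0.5, where no neuropil was named. Whole-section estimates changed sign with 1 section left out for Bmp2 (-0.057 to 0.136), Bmp6 (-0.25 to 0.38) and Bmp7 (-0.36 to 0.42). The causes were not tested. Same-numbered sections did not deviate together (r from -0.194 to 0.0943 over the areas), so the numbers are not shown to pair sections. With the numbers crossed, an alternative chosen after seeing the data, 11 features were called in the whole section, 65 in TH and 1 in HY, where the main counts were 0, while the replicate block with the numbers as given called 48 in TH. Without a filter 87 were called in TH and 48 in HY. Nog was highest in L2-3 in place of L4 at both other resolutions, as a thinned share and without HF rep2. Chrdl1, Bmp3 and Bmp4 also changed their highest area, to one with an overlapping range. Low UMI numbers per field limit the tests of the other members in the hippocampus.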
